A study of Mus musculus with 8 samples.

Results

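EBF1, PAX5, FOXO1 and the Oct factors form a circuit of transcription factors that sets and holds the identity of early B cells. Its 7 genes were taken by name, Ebf1 and Pax5, the forkhead genes Foxo1 and Foxo3, the Oct factor genes Pou2f1 and Pou2f2, and Pou2af1, which encodes the Oct coactivator OBF-1. All 7 were found among the 47937 gene IDs of the count tables. The RNA came from mouse pro-B cells that the Abelson leukaemia virus (A-MuLV) had transformed, and in which a modified EBF1 carrying a dTAG degron (EBF1-dTAG_N) stands in for the endogenous protein. Cells received 0.5 µM dTAG-13, which directs tagged protein to degradation, or the solvent DMSO, for 6 h, with 4 biological replicates of each per the series' text. Titles of the DMSO libraries say 0 h where their treatment label says DMSO for 6 h. Every library carried the tag and none came from cells with untagged EBF1, so an effect of the compound and an effect of EBF1 loss cannot be told apart. Whether the transformed line is 1 clone was not given in the sources used here.

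EBF1 opens B-lineage genes and activates Pax5, and PAX5 in turn activates B-cell genes, represses genes of other lineages and binds the Ebf1 gene, so that each factor sustains the other. FOXO1 and FOXO3 are forkhead factors that PI3K and AKT signalling keeps out of the nucleus, and in pro-B cells FOXO1 is needed for the expression of Il7r and the Rag genes. OCT1 (Pou2f1) and OCT2 (Pou2f2) bind the octamer sequence of immunoglobulin promoters and enhancers, and OBF-1 docks on them there.

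The sequence upstream of Foxo1 holds the inverted repeat that EBF proteins recognise. In the 250 bases before each RefSeq start site (GRCm38.p6), an EBF repeat, the core letters CCCNNGGG with a T before and an A after them, occurred for Foxo1 and for no other gene of the 7, in a single copy 92 to 83 bases before the start. Both strands were searched, and 0.779% of 32851 such windows before RefSeq start sites, of 27025 genes, hold the repeat. The core alone was found in 11.8% of windows, and among the 7 genes in Foxo1, where it lies inside the longer match, and in Foxo3. Neither the forkhead letters GTAAACA (in 3.17% of windows), the octamer ATGCAAAT (1.60%) nor the E-box CAGGTG (17.2%) stood in the windows of the 7 genes, which number 10 because Ebf1 and Pou2f1 have more than 1 start site. RefSeq starts do not always match the gene coordinates given below. The Pax5 window lies wholly upstream of the Pax5 coordinates. Both Ebf1 windows, the Pou2f2 window and the windows of Pou2f1 start sites 2 and 3 lie inside the coordinates of their own gene. Sequence before other starts was not searched. A match describes letters and not binding, which was not measured. The runs below go from 250 to 61 bases before the start site of the 3 genes that fell in exonic counts and of Foxo3, for comparison with its paralog, and capitals mark a match to an EBF repeat or core.
Foxo1, chr3:52268087-52268276, plus strand: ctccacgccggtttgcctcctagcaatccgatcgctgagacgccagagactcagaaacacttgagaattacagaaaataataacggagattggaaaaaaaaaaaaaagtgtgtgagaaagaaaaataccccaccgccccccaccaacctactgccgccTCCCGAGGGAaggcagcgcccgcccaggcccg
Foxo3, chr10:42276756-42276945, minus strand: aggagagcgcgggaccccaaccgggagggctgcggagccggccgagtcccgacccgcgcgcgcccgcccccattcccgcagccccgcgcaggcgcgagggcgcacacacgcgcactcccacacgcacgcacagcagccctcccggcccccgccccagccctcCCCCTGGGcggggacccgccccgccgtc
Pax5, chr4:44710755-44710944, minus strand: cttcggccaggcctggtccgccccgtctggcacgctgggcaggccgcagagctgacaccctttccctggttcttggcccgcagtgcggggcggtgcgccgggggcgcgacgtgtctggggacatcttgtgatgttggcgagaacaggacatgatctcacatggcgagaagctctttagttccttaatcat
Pou2af1, chr9:51213440-51213629, plus strand: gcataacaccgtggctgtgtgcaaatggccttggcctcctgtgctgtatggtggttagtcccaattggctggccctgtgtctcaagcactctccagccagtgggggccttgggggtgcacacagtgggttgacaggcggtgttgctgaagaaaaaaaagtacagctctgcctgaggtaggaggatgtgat

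Levels are given as CPM, read counts scaled to the TMM-adjusted library size, for exonic reads and, on their own library sizes, for intronic reads. Intronic reads are the whole-gene count minus the exon count and stem for the most part from RNA before splicing. Libraries held 28982316 to 38999496 exonic and 37269253 to 50980817 whole-gene reads, and 20.4% to 27.3% of whole-gene reads were intronic. Predicted genes that overlap ribosomal RNA took 25.7% to 29.3% of exonic reads. Of the 13 pro-B cell markers 12 were detected and Kit was at 0. The summed exonic level of these markers was 3076 to 3237 CPM after dTAG-13 and 3630 to 3736 CPM in DMSO. Ighm alone had a mean of 1323 CPM after dTAG-13 and 1326 CPM in DMSO, so the sum says little about single markers. By the exonic test described below, 8 of the 12 were called lower and 2 higher. That is 83.3%, beside 28.3% of all tested genes. T-cell markers summed to at most 0.156 CPM after dTAG-13 and 0.449 CPM in DMSO, with 7 of 8 genes at 0 in every library, Cd3e, Cd4 and Cd8a among them. NK-cell markers summed to 0.765 to 1.09 CPM after dTAG-13 and 0.138 to 0.656 CPM in DMSO (4 of 6 at 0), and myeloid markers to 3.52 to 4.34 CPM after dTAG-13 and 4.08 to 4.62 CPM in DMSO (2 of 8 at 0). Erythroid markers summed to 0.0272 to 0.208 CPM after dTAG-13 and 0.587 to 0.933 CPM in DMSO (3 of 5 at 0), and stromal markers to at most 0.272 CPM after dTAG-13 and 0.104 CPM in DMSO (3 of 6 at 0). Plasma cell markers summed to 425 to 457 CPM after dTAG-13 and 560 to 591 CPM in DMSO, with Prdm1, the factor that defines these cells, at 0. The part of these shifts in the changes below was not tested.

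In exonic RNA 5 of the 7 genes changed after dTAG-13, Pax5, Foxo1 and Pou2af1 to lower and Ebf1 and Pou2f2 to higher levels, while Foxo3 and Pou2f1 did not pass the test. Among all 12889 genes tested 28.3% were called in either direction (edgeR quasi-likelihood, Benjamini-Hochberg adjusted p below 0.05), 14.0% lower and 14.3% higher. The levels of 6 of the 7 genes did not overlap between the groups, against 27.7% of all tested genes. The fitted changes lay between -0.57 and 0.46 on the log2 scale, with a median of -0.09 beside -0.00 over all tested genes. In these bulk libraries fewer cells that express a gene and less of its RNA per cell cannot be told apart.

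**Figure D1:**
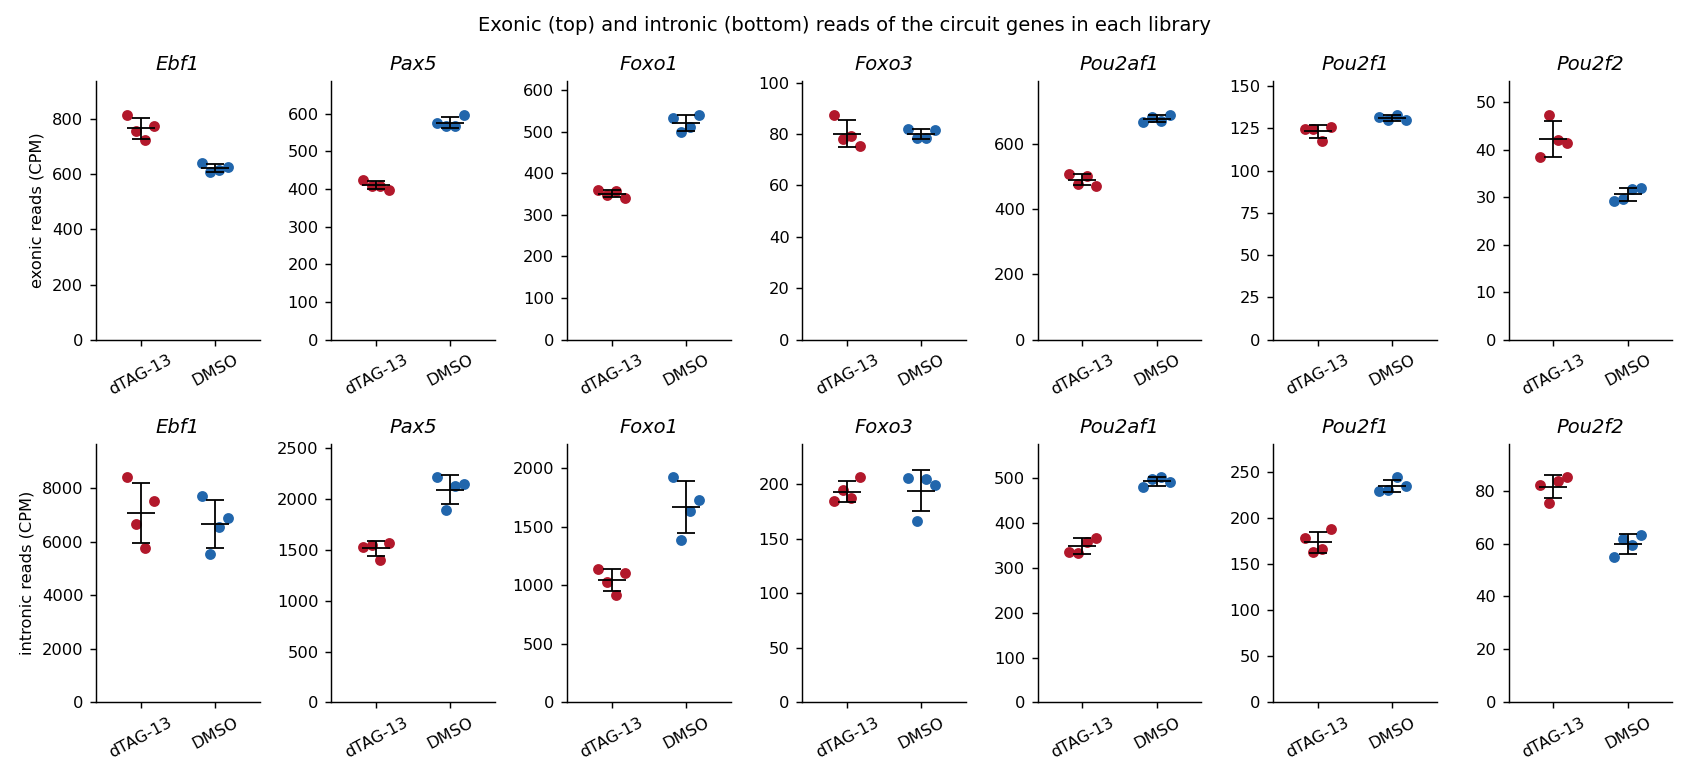
Exonic (upper row) and intronic (lower row) level in CPM of the 7 genes in each library, dTAG-13 on the left and DMSO on the right of each panel, with points for libraries and bars for the mean and SD of 4. The exonic levels of Pax5, Foxo1 and Pou2af1 lie lower and those of Ebf1 and Pou2f2 higher in all 4 dTAG-13 libraries than in all 4 DMSO libraries, while Foxo3 overlaps in both rows.

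Ebf1, the gene of the degraded factor (ENSMUSG00000057098.14, chromosome 11, 44617317 to 45008091, plus strand, GRCm38 as in GENCODE vM21), had more exonic RNA in all 4 treated libraries. The exonic level was 816, 757, 723 and 773 CPM after dTAG-13, against 639, 608, 615 and 628 CPM in DMSO. The change was 0.30 ± 0.04 on the log2 scale (SE, edgeR adjusted p = 2.1e-07), or 1.23-fold higher. Exonic reads of the introduced and of the chromosomal gene cannot be separated here, and RNA does not measure how much protein was degraded. Ebf1 introns gave 8395, 6671, 5780 and 7499 CPM after dTAG-13, against 7698, 5522, 6537 and 6898 CPM in DMSO. These groups overlapped, and the intronic change of 0.09 (95% interval -0.14 to 0.31) was not called (edgeR adjusted p = 0.665). The exonic change exceeded the intronic one by 0.21 ± 0.09 (SE), a difference that was not called either (edgeR adjusted p = 0.564). Over whole-gene counts, 73.4% of which were intronic after dTAG-13 and 76.7% in DMSO, the Ebf1 change was 0.13 (edgeR adjusted p = 0.363). Tested against a 1.2-fold change, the exonic rise did not pass (edgeR adjusted p = 0.4).

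Pax5 (ENSMUSG00000014030.15, chromosome 4, 44524757 to 44710487, minus strand), the partner that EBF1 activates, fell in both read classes. Its exonic level was 424, 407, 409 and 398 CPM after dTAG-13, against 576, 566, 566 and 597 CPM in DMSO. The highest treated library lay well under the lowest control, and the change was -0.49 ± 0.03 (SE, edgeR adjusted p = 6.1e-12), 1.41-fold lower. Intronic Pax5 measured 1532, 1552, 1405 and 1567 CPM after dTAG-13 and 2212, 1891, 2124 and 2144 CPM in DMSO, with no overlap. The intronic change of -0.47 ± 0.07 (SE, edgeR adjusted p = 4.5e-05) and the exonic one differed by -0.03 (95% interval -0.18 to 0.12, edgeR adjusted p = 0.950). A predicted gene on the opposite strand, 5730488B01Rik, overlaps a Pax5 exon and had 874 exonic reads over all libraries, beside 138051 for Pax5.

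The ratio of Pax5 to Ebf1 exonic reads within a library does not depend on library scaling. It was 0.520, 0.538, 0.566 and 0.515 after dTAG-13, against 0.900, 0.932, 0.920 and 0.951 in DMSO. Ratios were close together within each group and lower in every treated library. The log2 ratio differed by -0.79 (two-sided exact permutation p = 0.0286, n = 4 per group). That is the smallest p that 4 against 4 libraries allow, and each of the 4 ratios described here reached it, before and after Benjamini-Hochberg adjustment over the 4. For Pax5/Ebf1, Pou2af1/Pou2f2 and Pou2f2/Pou2f1 this was fixed beforehand, because the levels of both genes separated the groups in opposite directions. For Foxo1/Foxo3 it was fixed as well, because Foxo1 separated the groups by a wider fold gap than Foxo3 spanned over all libraries. Foxo1 was at most 360 CPM after dTAG-13 and at least 500 CPM in DMSO, while Foxo3 stayed within 75.3 to 87.5 CPM. The p-values of the ratios therefore add no support to the single-gene results, and all ratios were chosen with earlier results known.

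Of the forkhead genes, Foxo1 fell and Foxo3 showed no detectable change. Foxo1 (ENSMUSG00000044167.6, chromosome 3, 52268336 to 52353221, plus strand), whose upstream EBF repeat is printed above, had an exonic level of 360, 348, 357 and 340 CPM after dTAG-13, against 533, 500, 510 and 540 CPM in DMSO. Each treated library was lower than each control, and the change of -0.57 ± 0.04 (SE, edgeR adjusted p = 7.9e-13), 1.48-fold lower, was the largest exonic change among the 7 genes. Intronic Foxo1 stood at 1136, 1030, 921 and 1101 CPM after dTAG-13 and 1920, 1384, 1635 and 1728 CPM in DMSO. The DMSO values spread more than the exonic ones but stayed above the treated ones, with a change of -0.67 ± 0.09 (SE, edgeR adjusted p = 4.2e-06). Gm38034, a predicted transcript on the same strand inside a Foxo1 intron, shares no exon with Foxo1 and had 5081 reads over all libraries. The intronic count of Foxo1 was 9855 to 21331 reads per library. Foxo1 exonic and intronic changes differed by 0.09 (95% interval -0.09 to 0.27, edgeR adjusted p = 0.871).

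Foxo3 (ENSMUSG00000048756.11, chromosome 10, 42181841 to 42276755, minus strand), the paralog of Foxo1, measured 87.5, 78.2, 79.2 and 75.3 exonic CPM after dTAG-13, against 82.1, 78.4, 78.5 and 81.5 CPM in DMSO. Both the highest and the lowest of the 8 values were treated libraries. The 95% interval of the exonic change was -0.09 to 0.09 (edgeR adjusted p = 0.987), so a change of the size seen for Foxo1 lies outside it. Foxo3 intronic levels were 185, 195, 188 and 206 CPM after dTAG-13 and 206, 166, 205 and 199 CPM in DMSO, with an interval of -0.15 to 0.14 (edgeR adjusted p = 0.967). The Foxo1 to Foxo3 ratio of exonic reads, its p-value fixed beforehand as stated above, describes how the paralogs differed in their change. It was 4.11, 4.45, 4.51 and 4.52 after dTAG-13, against 6.49, 6.37, 6.50 and 6.63 in DMSO, a log2 difference of -0.57 (exact permutation p = 0.0286, n = 4 per group). Foxo4, another forkhead gene of the family, was at 26.0 ± 1.58 CPM after dTAG-13 and 26.6 ± 0.622 CPM in DMSO (SD, n = 4 each, change -0.03, edgeR adjusted p = 0.74), and Foxo6 was at 0 in every library.

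The Oct coactivator gene Pou2af1 fell while the gene of one of its partners, Pou2f2, rose. Pou2af1 (ENSMUSG00000032053.7, chromosome 9, 51213708 to 51240080, plus strand) had an exonic level of 508, 478, 502 and 472 CPM after dTAG-13, against 667, 680, 668 and 688 CPM in DMSO. The groups were far apart relative to their spread, and the change was -0.46 ± 0.03 (SE, edgeR adjusted p = 2.3e-11), 1.38-fold lower. Pou2af1 introns measured 334, 332, 358 and 367 CPM after dTAG-13 and 479, 498, 501 and 491 CPM in DMSO, a change of -0.50 ± 0.06 (SE, edgeR adjusted p = 1.3e-06). Exonic and intronic change of Pou2af1 differed by 0.03 (95% interval -0.11 to 0.18, edgeR adjusted p = 0.939).

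Pou2f2, which encodes OCT2 (ENSMUSG00000008496.18, chromosome 7, 25087344 to 25179726, minus strand), was the lowest of the 7 genes and rose. It stood at 38.4, 47.4, 42.0 and 41.5 exonic CPM after dTAG-13, against 29.3, 29.7, 31.8 and 31.9 CPM in DMSO. The treated libraries spread more than the controls and did not overlap them, with a change of 0.46 ± 0.06 (SE, edgeR adjusted p = 4.5e-07), 1.38-fold higher. Intronic Pou2f2 rose to a similar extent, with 82.0, 75.3, 83.6 and 85.0 CPM after dTAG-13 and 54.8, 61.7, 59.5 and 63.2 CPM in DMSO (change 0.44 ± 0.07 SE, edgeR adjusted p = 8.5e-05). With intronic counts scaled by the exonic library sizes this change was 0.42 and missed the threshold (edgeR adjusted p = 0.0643). Within a library there were 13.2, 10.1, 12.0 and 11.4 exonic reads of Pou2af1 per read of Pou2f2 after dTAG-13, against 22.8, 22.9, 21.0 and 21.6 in DMSO. This shift of -0.93 on the log2 scale (exact permutation p = 0.0286, n = 4 per group) was the largest of the 4 ratios.

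Pou2f1, which encodes the widely expressed OCT1 (ENSMUSG00000026565.18, chromosome 1, 165865154 to 166002678, minus strand), fell in intronic reads, and its exonic reads moved less. Its exonic level was 125, 125, 118 and 126 CPM after dTAG-13, against 132, 130, 133 and 130 CPM in DMSO. The groups did not overlap but lay close, and the change of -0.09 ± 0.04 (SE) missed the threshold (edgeR adjusted p = 0.0739). DESeq2 on the same counts gave -0.09 and passed (adjusted p = 0.0434), and the authors' deposited table, also from DESeq2, lists -0.09 with an adjusted p of 0.0421. Intronic Pou2f1 was at 178, 163, 166 and 188 CPM after dTAG-13 and 229, 230, 244 and 234 CPM in DMSO, a change of -0.43 ± 0.06 (SE, edgeR adjusted p = 1.2e-05). The exonic change exceeded the intronic one by 0.34 ± 0.06 (SE, edgeR adjusted p = 0.0136), a difference that passed the test for 1 of the 7 genes and for 0.319% of 10026 genes tested, 0.160% with a lower and 0.160% with a higher exonic change. This call was lost without dTAG-13 replicate 2 or 3 or DMSO replicate 3 or 4 (edgeR adjusted p = 0.0575, 0.0697, 0.0639 and 0.0528), with differences of 0.31, 0.33, 0.33 and 0.34. Introns held 30.0% ± 3.39 of Pou2f1 reads after dTAG-13 and 35.7% ± 1.98 in DMSO (SD, n = 4 each), and the shares of single libraries overlapped. Cd247, on the opposite strand, shares exon sequence with Pou2f1 and had 4 exonic reads over all libraries, beside 35905 of Pou2f1.

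Relative to Pou2f1, Pou2f2 was higher after dTAG-13. The ratio of Pou2f2 to Pou2f1 exonic reads was 0.308, 0.379, 0.357 and 0.330 after dTAG-13, against 0.222, 0.228, 0.239 and 0.246 in DMSO, a log2 difference of 0.55 (exact permutation p = 0.0286, n = 4 per group). Pou2f1 reads still outnumbered those of Pou2f2 in every library. Pou2f3, the remaining Oct gene of this family, was at 0 throughout.

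**Figure D2:**
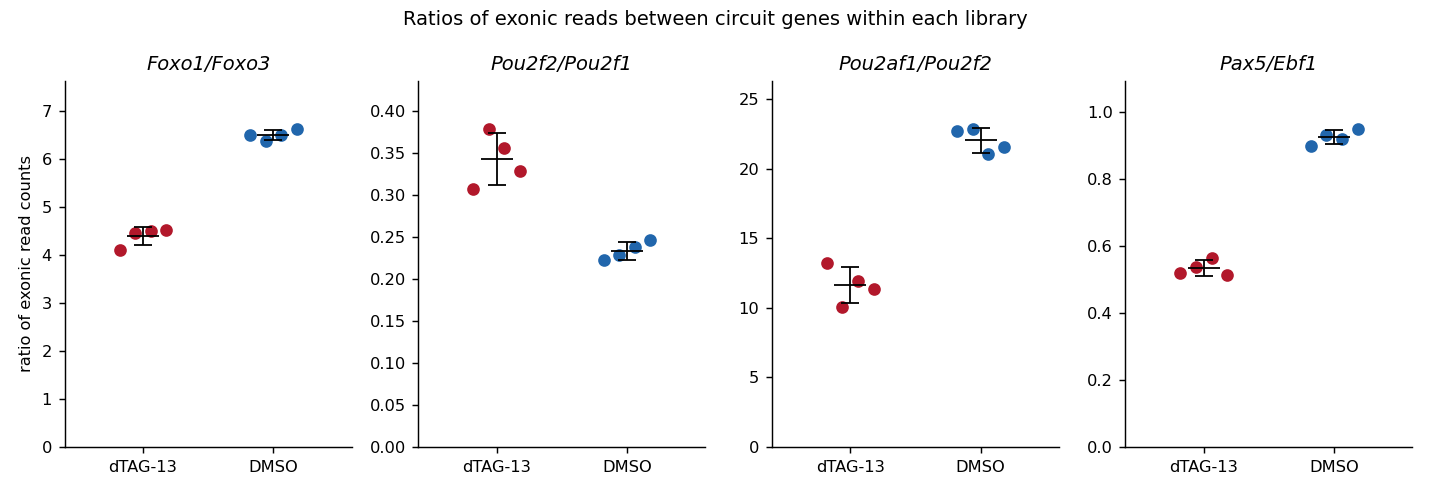
Ratio of exonic read counts of paired genes within each library on linear axes from 0, dTAG-13 on the left and DMSO on the right, with points for libraries and bars for the mean and SD of 4. None of the 4 ratios overlaps between the groups, with lower Foxo1/Foxo3, Pou2af1/Pou2f2 and Pax5/Ebf1 ratios and a higher Pou2f2/Pou2f1 ratio after dTAG-13.

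In intronic reads 5 of the 7 genes were called, 4 lower and 1 higher, where 16.8% of the 11229 genes tested were called, 8.50% lower and 8.26% higher. With library totals as the only scaling, the split of all intronic calls was 732 lower and 1174 higher, beside 954 lower and 927 higher. Intronic levels of 5 of the 7 genes did not overlap between the groups, against 19.5% of all genes tested. Those called were Pax5, Foxo1, Pou2af1 and Pou2f1 to lower and Pou2f2 to higher levels. In both read classes 4 genes passed in the same direction, Pax5, Foxo1, Pou2af1 and Pou2f2, and the difference between the classes did not pass the test for any of these. Exonic against intronic calls therefore parted at Ebf1, called in exons, and at Pou2f1, called in introns.

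**Figure D3:**
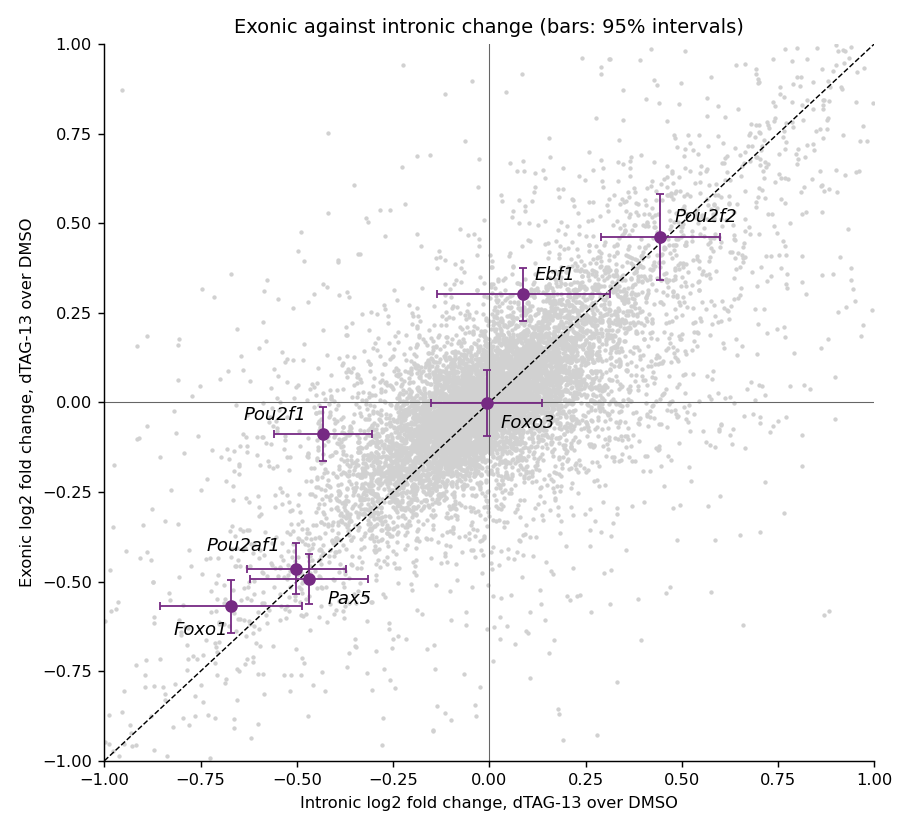
Fitted log2 change, dTAG-13 over DMSO, in intronic (x axis) against exonic reads (y axis) for the 7 genes with 95% intervals as bars, over the genes tested in both classes in grey, of which 366 lie beyond 1 on the log2 scale and are not drawn. Pax5, Foxo1, Pou2af1 and Pou2f2 lie near the dashed line of equal change, whereas Pou2f1 lies 0.34 above it.

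Per kb of exon, the scale on which levels of different genes may be compared, Pou2af1 was the most abundant of the 7 genes in both groups, with 192 ± 7.07 CPM per kb after dTAG-13 and 265 ± 4.04 in DMSO (SD, n = 4 each). In DMSO the next 3 genes lay close together, Pax5 at 65.1 ± 1.65, Ebf1 at 63.8 ± 1.43 and Foxo1 at 60.1 ± 2.18 CPM per kb, and neighbours in this order overlapped between libraries. After dTAG-13 the same genes stood apart without overlap, Ebf1 at 78.6 ± 3.94, Pax5 at 46.3 ± 1.2 and Foxo1 at 40.5 ± 1.04 CPM per kb. Foxo3 followed with 10.6 ± 0.692 CPM per kb after dTAG-13 and 10.6 ± 0.259 in DMSO, then Pou2f1 with 7.43 ± 0.226 after dTAG-13 and 7.90 ± 0.0923 in DMSO, and Pou2f2 with 5.14 ± 0.454 after dTAG-13 and 3.72 ± 0.165 in DMSO. These lower ranks were the same in both groups and did not overlap. Over all libraries Pou2af1 ranked at percentile 99.1 of the tested genes, Ebf1, Pax5 and Foxo1 between 95.2 and 96.9, and Pou2f2 at 45.6. Versions of the Pou2af1 and Pou2f2 gene models differ between the count tables and the annotation used for length, so their length is approximate.

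**Figure D4:**
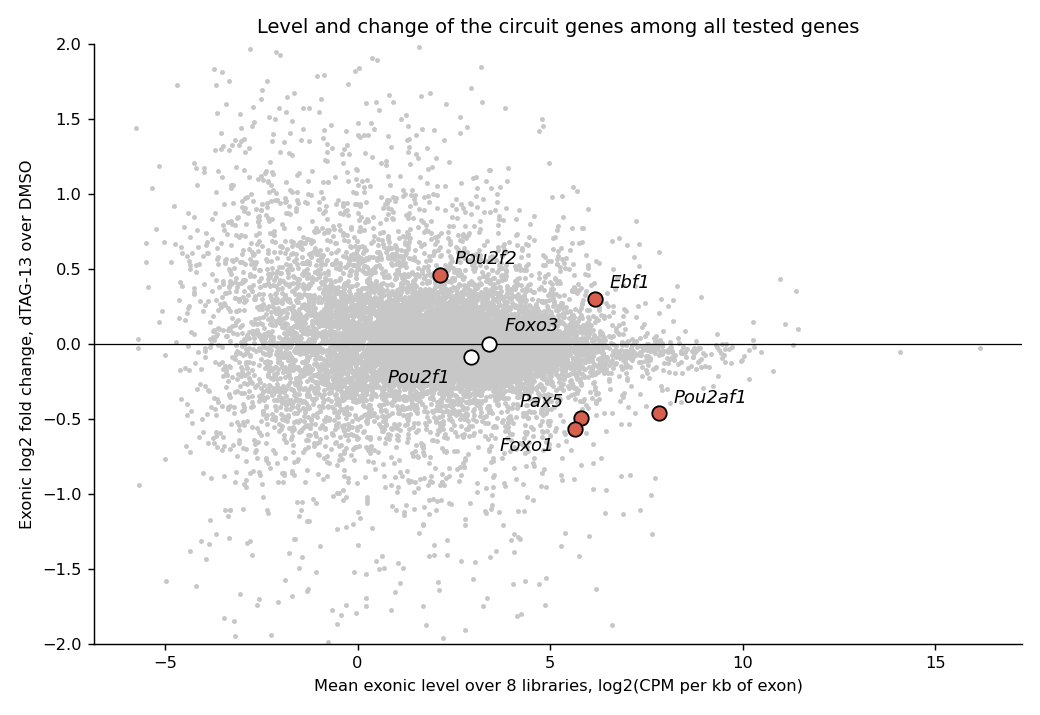
Exonic log2 change, dTAG-13 over DMSO, against mean exonic level over the 8 libraries in log2 CPM per kb of exon, for the 7 genes (red, adjusted p below 0.05; white, not passed) over all tested genes in grey, of which 74 beyond 2 on the log2 scale are not drawn. Pou2af1, Ebf1, Pax5 and Foxo1 lie among the most abundant genes, and Pou2f2 near the middle.

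Genes whose exonic level followed that of a circuit gene most closely over the 8 libraries were named by Pearson correlation of log2 CPM among 7810 genes with a mean of at least 10 CPM. These libraries share the treatment contrast, so a gene that changes with treatment correlates with any other that does. Pax5 was the closest gene to Foxo1 (r = 0.997), followed by Lgals9, which encodes the lectin galectin-9 (r = 0.997). Nearest to Pax5 were Plekhm1, which encodes a lysosomal adaptor (r = 0.999), and Ppp1cb, a catalytic subunit gene of protein phosphatase 1 (r = 0.998). Pou2af1 was followed most closely by Traf4, a TRAF-family adaptor gene (r = 0.999), and by Ncl, which encodes nucleolin (r = 0.997). For Ebf1 these were Kidins220 (r = 0.990) and Ube4a, a ubiquitin ligase gene (r = 0.989), and for Pou2f2 Syde1 and Arid3b, whose product is an AT-rich DNA-binding factor (r = 0.984 each). Foxo3 and Pou2f1 had looser neighbours, Rnf187 (r = 0.962) and Rbbp7 (r = 0.958) for Foxo3, and Tmem201 (r = 0.969) and Cpm, a carboxypeptidase gene (r = 0.966), for Pou2f1.

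Of the 14 nearest tested genes on either side of the 7 genes 4 were called in exonic reads, 3 lower and 1 higher, a share close to the 28.3% of all tested genes. The clathrin adaptor gene Clint1, 844 kb downstream of Ebf1, had 86.0 ± 3.32 CPM after dTAG-13 and 113 ± 2.86 CPM in DMSO (SD, n = 4 each) and changed by -0.39 (edgeR adjusted p = 7.2e-09), opposite to Ebf1. Cog6, a Golgi complex gene 629 kb downstream of Foxo1, changed by 0.17 (edgeR adjusted p = 0.031), also opposite to its neighbour. The uncharacterised gene 2010007H06Rik, 38.4 kb downstream of Pou2af1, fell as Pou2af1 did, by 0.46 on the log2 scale, with 8.84 ± 0.951 CPM after dTAG-13 and 12.1 ± 1.74 CPM in DMSO (SD, n = 4 each, edgeR adjusted p = 0.0013). Creg1, 89.8 kb downstream of Pou2f1, changed by -0.29 (edgeR adjusted p = 0.0243). Zcchc7, the neighbour 45.4 kb upstream of Pax5, changed by 0.13 (edgeR adjusted p = 0.161) and Melk on the other side by -0.10 (edgeR adjusted p = 0.184), and neither passed the test. Zfp574, only 3.85 kb from Pou2f2, was at 38.7 ± 1.91 CPM after dTAG-13 and 38.2 ± 2.25 CPM in DMSO (SD, n = 4 each, change 0.02, edgeR adjusted p = 0.858).

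Genes known to be activated by PAX5 were mostly lower, 13 of 19 tested, with 2 higher, and their median change was -0.30 beside -0.00 over all tested genes. The share called was 78.9%, beside 28.3% of all tested genes, 14.0% lower and 14.3% higher. This and the following lists were chosen with earlier results of these data known, so their shares are a description. Several of them are also EBF1 targets, so the list is not specific to PAX5. Cplx2, which encodes a complexin, had 206 ± 7.31 CPM after dTAG-13 and 757 ± 15.2 CPM in DMSO (SD, n = 4 each, change -1.88). Lef1, a Wnt-responsive factor gene, was at 118 ± 0.641 CPM after dTAG-13 and 396 ± 5.48 CPM in DMSO (SD, n = 4 each, change -1.74), and Vpreb3 changed by -1.0. Bcar3, an adaptor gene, and Cd55, a complement regulator gene, were the 2 that rose, with changes of 0.89 and 0.26, and Cd55 was named after its values were seen. In a test against 1.2-fold, 8 were lower and 1 higher.

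All 10 tested genes of those known to be repressed by PAX5 were called, 7 higher and 3 lower, with a median change of 0.64. Among all tested genes 28.3% were called. Cd47, the "do not eat me" signal, had 272 ± 14.1 CPM after dTAG-13 and 167 ± 7.86 CPM in DMSO (SD, n = 4 each, change 0.71). Cd244a, an NK-cell receptor gene, was at 7.95 ± 1.11 CPM after dTAG-13 and 3.29 ± 0.180 CPM in DMSO (SD, n = 4 each, change 1.27). The adaptor gene Sla and the progenitor factor gene Lmo2 changed by 0.57 and 1.27. Those that fell were Xbp1 and Sdc1, genes of the plasma cell programme, and Notch1, the receptor of T-cell commitment, by 0.44, 0.56 and 0.25 on the log2 scale. Jchain, also a plasma cell gene, rose, with 2.66 ± 0.404 CPM after dTAG-13 and 1.11 ± 0.614 CPM in DMSO (SD, n = 4 each, change 1.27). These 4 genes were named after their values were seen. The other 10 listed genes were too low to test. A low gene can pass the filter through the group where it is high, so these counts are a description.

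FOXO target genes went in both directions, 8 of 26 tested lower, 7 higher and 11 not called, with a median of -0.02. Called genes made up 57.7% of those tested in this list, beside 28.3% of all tested genes. Bnip3, a mitophagy gene, had 15.8 ± 0.279 CPM after dTAG-13 and 33.9 ± 1.27 CPM in DMSO (SD, n = 4 each, change -1.10, edgeR adjusted p = 2.7e-14). The recombinase gene Rag1 was at 32.2 ± 4.45 CPM after dTAG-13 and 67.1 ± 3.70 CPM in DMSO (SD, n = 4 each, change -1.06). Among those that rose were Sesn3, a sestrin gene, at 256 ± 3.12 CPM after dTAG-13, against 163 ± 4.07 CPM in DMSO, and the catalase gene Cat, at 361 ± 25.2 CPM after dTAG-13, against 221 ± 5.15 CPM in DMSO (SD, n = 4 each, changes 0.65 and 0.71). The superoxide dismutase gene Sod2 fell by 0.27 on the log2 scale, and the sestrin gene Sesn1 was not called (change 0.05, edgeR adjusted p = 0.535), both named after their values were seen. Without dTAG-13 replicate 1 or 2 the number called higher was 4. Of 30 tested genes of PI3K, AKT and FOXO control 9 were higher, 3 lower and 18 not called, with a median of 0.02. The share called was 40.0%, beside 28.3% of all tested genes. Pik3cd, the catalytic subunit gene of PI3K in lymphocytes, had 610 ± 8.76 CPM after dTAG-13 and 793 ± 14.0 CPM in DMSO (SD, n = 4 each, change -0.38), and Inpp5d, the phosphatase SHIP1, changed by -0.34. Akt2 and the regulatory subunit gene Pik3r1 changed by 0.30 and 0.24. Only 1 gene of this list stayed called against a 1.2-fold change, to a lower level.

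Of 9 tested octamer and OBF-1 target genes 4 were lower and 2 higher, with a median of -0.00. The share called was 66.7%, beside 28.3% of all tested genes. Il5ra, among the lower ones, was at 0.203 ± 0.267 CPM after dTAG-13 and 0.665 ± 0.202 CPM in DMSO (SD, n = 4 each). So low a gene can pass the filter through the DMSO libraries, so these counts are a description. It was named after its values were seen. Crisp3, which encodes a secreted cysteine-rich protein, had 20.4 ± 0.457 CPM after dTAG-13 and 5.68 ± 0.430 CPM in DMSO (SD, n = 4 each, change 1.84). The change was -0.54 for Cd79b and -0.30 for Cd79a, the signalling chains of the B cell receptor, and 0.29 for Igkc, the kappa constant region. Ighm, also named after its values were seen, was not called (edgeR adjusted p = 0.949). Its level was 1323 ± 45.6 CPM after dTAG-13 and 1326 ± 23.9 CPM in DMSO (SD, n = 4 each). Of 20 tested factors that act upstream of Ebf1 and Pax5, 9 were lower, 5 higher and 6 not called, with a median of -0.06. The share called was above the 28.3% of all tested genes, 14.0% lower and 14.3% higher. Id2, an E-protein inhibitor, had 34.3 ± 0.650 CPM after dTAG-13 and 11.2 ± 0.379 CPM in DMSO (SD, n = 4 each, change 1.62), while Id3, Myb and the E2A gene Tcf3 changed by -0.90, -0.61 and -0.46. Genes of partner proteins were lower in 9 and higher in 3 of 26 tested, with a median of -0.03. Here 46.2% were called, beside 28.3% of all tested genes. Runx1 and Ets1, partners of EBF1 and PAX5, changed by -0.38 each, and the corepressor gene Tle1 by -0.44.

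Of 16 listed paralogs of the 7 genes, 14 were found by name in the count tables. Of these 14, 10 were at 0 in every library, Ebf2 and Ebf3 among them, whereas Foxo4, described above, was detected in all libraries. Pax7 was at 0.0943 ± 0.141 CPM after dTAG-13 and 0.893 ± 0.112 CPM in DMSO (SD, n = 4 each) and passed the filter on low counts through the DMSO libraries, so its difference is given as a description. Ebf4 could be tested in intronic reads, with 1.28 ± 0.428 CPM after dTAG-13 and 1.5 ± 0.394 CPM in DMSO (SD, n = 4 each, change -0.19, edgeR adjusted p = 0.828). Tests of single genes were made over the whole tables, and the lists are described by counts and medians only.

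**Figure D5:**
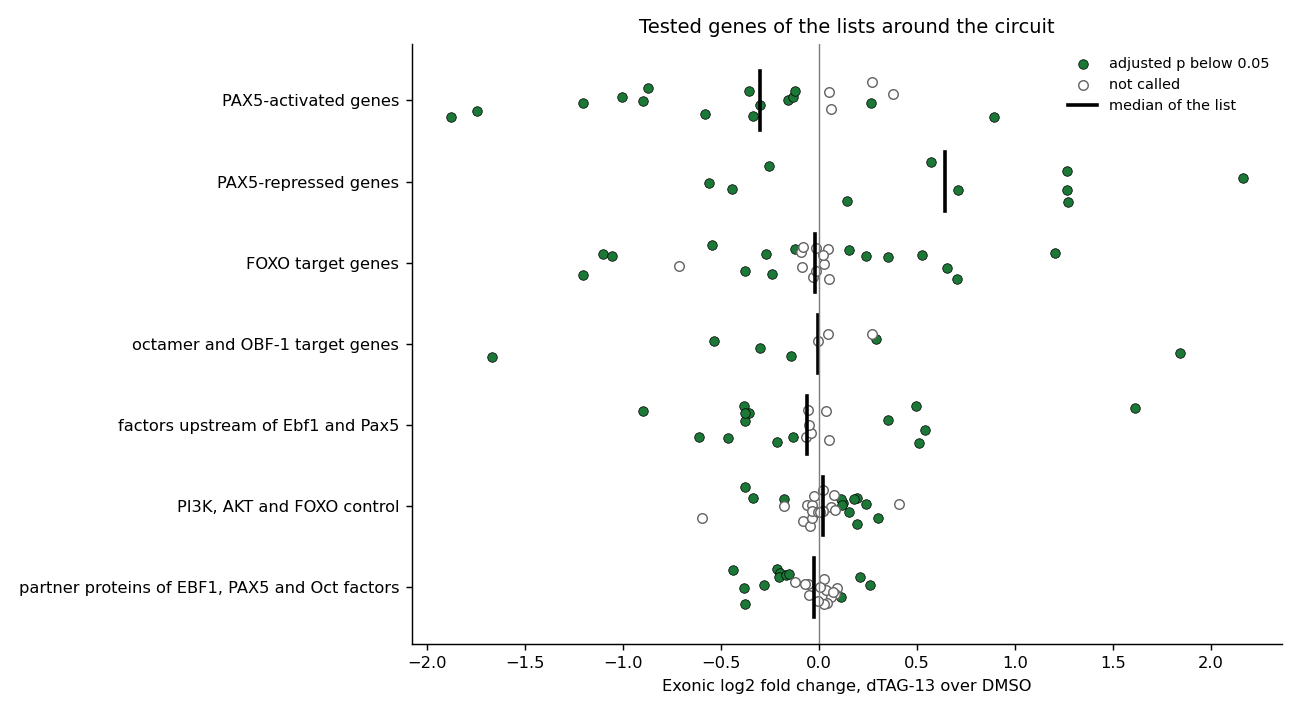
Exonic log2 change, dTAG-13 over DMSO, of each tested gene in 7 lists around the circuit, with filled points for genes called at an adjusted p below 0.05, open points for the others and black bars for the median of each list. PAX5-activated genes have a median of -0.30 and PAX5-repressed genes of 0.64, while the medians of the other lists lie within 0.1 of 0.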

How the data were processed

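Counts of reads per gene, over exons and over whole genes, were deposited by the authors for 4 dTAG-13 and 4 DMSO libraries, prepared with a stranded kit that removes ribosomal RNA, per the labels' protocols. Tools named in the submitters' processing notes are Subread 2.0.0 with featureCounts, STAR 2.7.4a, SAMtools 1.10, deepTools 3.3.2 and DESeq2, with builds mm10 and GRCm38.p4. How strand was set in counting, and the release of the annotation, is not given in the sources used here, so reads shared with overlapping genes are uncertain. The authors' deposited table gives DESeq2 log2 fold changes and adjusted p-values for exonic and intronic reads, per the file headers.

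Intronic counts were computed as whole-gene minus exon count, and none was negative. Both classes were tested over all genes with edgeR 4.0.16 (R 4.3.3) by its quasi-likelihood test, with TMM factors, filterByExpr (minimum count 10, total 15), treatment as the only term and Benjamini-Hochberg adjustment at 0.05. All values are shares of a library's RNA. The difference between classes was tested as an interaction over 16 columns with the library as a block. For ratios between genes the two-sided exact permutation test was run over libraries. On simulated counts with 1.5-fold changes, 70% were recovered in exonic counts (12889 genes), 69% in intronic counts (11229 genes) and 62% for the difference (10026 genes). Of 1.2-fold changes, 49% were recovered in exonic and 19% in intronic counts, so small changes can be missed. In exonic and intronic counts the simulation changed far fewer genes than were called in these data. It drew them from all levels, so its rates do not give the recovery for the circuit genes. The median standard error was 0.07 on the log2 scale in exonic and 0.11 in intronic counts. Chi-square per degree of freedom between replicates was 4.55 to 12.4, above sampling noise, so each library counted as a sample.

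The genes, ratios and lists were chosen with earlier results of these data known. Named genes were the 7 genes, the nearest tested gene on each side, the 2 closest by correlation (predicted genes and receptor segments passed over) and, per list, at most 4 called genes, those with the smallest p. Some genes under this rule are not reported here. Others are said to be named after their values were seen. Symbols came from the authors' table for 19321 IDs and from GENCODE vM21 for 27914, and 702 had none. Alternatives were other scalings (RLE, library totals), DESeq2 1.42.0, other filters, a replicate block, rRNA-like genes left out, whole-gene counts, a 1.2-fold test, exonic scaling of intronic counts and each library left out.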

Additional observations from a re-analysis of the deposited data

Results flagged for a closer look

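A library stood apart from the other 3 of its group in 2 of 36 sets of 4 values, where chance gives about 1 in 20. The exonic level of Pou2f1 in dTAG-13 replicate 3 was 118 CPM, below the 125 to 126 CPM of the other 3 treated libraries. Without that library the exonic change of Pou2f1 stayed short of the threshold, as it did without each other library, with edgeR adjusted p-values from 0.0616 to 0.231. The log2 ratio of Foxo1 to Foxo3 in dTAG-13 replicate 1 was 2.04, below the 2.15 to 2.17 of the other 3 treated libraries and farther from the DMSO values than they were. In the same library Foxo3 had its highest exonic level, 87.5 CPM.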

How the results depend on the processing

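No called result changed direction under the alternatives run. Exonic calls of Pax5, Foxo1, Pou2af1 and Pou2f2 held under all of them. The exonic Ebf1 call was lost over whole-gene counts (0.13, edgeR adjusted p = 0.363) and against a 1.2-fold change (0.30, edgeR adjusted p = 0.4). Pou2f1 was called with DESeq2 (-0.089, adjusted p = 0.0434) and over whole-gene counts (-0.20, edgeR adjusted p = 0.00258), where intronic reads add to the exonic ones. Against a 1.2-fold change 486 genes were lower and 601 higher in exonic counts. With exonic library sizes the intronic calls were 425 lower and 416 higher, and Pou2f2 was not called (0.42, edgeR adjusted p = 0.0643); the cause was not tested. In lists, the 1.2-fold test left 5 lower and 4 higher FOXO targets, 1 and 1 octamer targets and 3 and 0 partner genes, and 5 partner genes were higher with DESeq2 or a 5 CPM filter and 6 with library totals, beside 3. With library totals only, exonic calls were 1403 lower and 1952 higher.

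Replicate numbers did not pair the samples: correlations of deviations between same-numbered libraries lay between -0.02 and 0.05 in exonic counts. With the replicate block 1869 genes were lower and 1884 higher in exonic, and 982 and 955 in intronic counts, and no call of the 7 genes changed. A sign-flip test over the replicate block gave p = 0.125 for the ratio differences of -0.57 (Foxo1/Foxo3), 0.55 (Pou2f2/Pou2f1), -0.93 (Pou2af1/Pou2f2) and -0.79 (Pax5/Ebf1), the smallest exact p that 4 pairs allow.

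Leaving out each library in turn gave ratio differences of -0.58 to -0.53 (Foxo1/Foxo3), 0.50 to 0.60 (Pou2f2/Pou2f1), -0.99 to -0.86 (Pou2af1/Pou2f2) and -0.82 to -0.78 (Pax5/Ebf1), each with an exact permutation p of 0.0571, the smallest that 3 against 4 libraries allow. The difference of exonic and intronic change of Pou2f1 ranged from 0.31 to 0.37, and genes called for that difference from 8 to 18 lower and 3 to 15 higher. The median standard error, 0.11 in intronic and 0.07 in exonic counts, limits intronic calls to larger changes.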
